A study of Mus musculus with 4 samples.

Results

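The 53 genes described here encode the machinery that takes newly made secretory proteins into the endoplasmic reticulum (ER), folds them, removes those that fail to fold, and senses their build-up. They were chosen by function from 55335 gene rows and fall into 10 steps: the translocon (5 genes), the translocon-associated complex (4), signal peptidase (5), oligosaccharyltransferase (6), chaperones and their cofactors (11), lectin chaperones (2), disulfide isomerases (4), ER-associated degradation (9), stress sensors (5) and stress transcription factors (2). All 53 were present in the table and all 53 passed the filter on low values, a mean of at least 1 CPM (reads in a gene per 1000000 reads in genes).

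Both cell fractions came from corpus tissue of the stomach. The mice were C57BL/6, were 6 to 8 weeks old and all carried the reporter allele Iqgap3-2A-tdTomato. Living cells that bore the epithelial surface protein EpCAM were sorted into an IQ3pos fraction, high for the red fluorescent reporter of Iqgap3, a scaffold protein, and an IQ3neg fraction, low or negative for it. Each fraction had 2 SMART-Seq2 libraries (full-length cDNA amplified by PCR), each made from a pool of several mice: 3 mice for IQ3pos_1909A and for IQ3neg_1909B, and 4 mice for IQ3pos_1910A and for IQ3neg_1910B. The series is about stem cell proliferation in the corpus, and the comparison asks how the ER genes stood in reporter-high cells relative to the other epithelial cells.

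Secretory and membrane proteins enter the ER through the Sec61 channel while they are being made, lose their signal peptide and receive N-linked glycans on the way in. In the lumen, BiP and other chaperones, lectins and disulfide isomerases fold them, and proteins that fail are drawn back to the cytosol and degraded. When unfolded proteins build up, the sensors IRE1, ATF6 and PERK start the unfolded protein response, which raises chaperone and degradation genes. In the corpus this machinery is best known from zymogen-secreting chief cells, whose cytoplasm is packed with rough ER.

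Several ER genes carry known stress elements in their promoters, and these are shown because the members that hold them had log2 differences of either sign. The ER stress element ERSE has the letters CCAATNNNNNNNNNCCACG and is bound by ATF6 together with NF-Y, and ERSE-II has the letters ATTGGNCCACG. RefSeq promoter windows (GRCm38.p6, 250 bases before to 50 after each start) were found for 44 of the 53 genes, in 47 windows, and both strands were searched. Atf6, Derl1, Ern2, Hyou1, Manf, Sec11c, Sec61a1, Spcs3 and Ssr2 had no window. ERSE was matched in 9 of the 47 windows (19.1%), against 39 of 32851 windows of all genes (0.119%): those of Calr, Canx, Creld2, Derl3, Dnajc3, Hsp90b1, Hspa5, Pdia6 and Syvn1. ERSE-II was matched in 2 windows (4.26%, against 0.0365% of all windows), those of Dnajb11 and Herpud1, and the 2 motifs did not share a window among the members. Stretches of 8 of these promoters follow, each read 5′ to 3′ on the gene's own strand with the fixed letters of the motif, or of its reverse complement, in capitals. The matches are descriptions of these windows and say nothing of binding.
Herpud1 (ERSE-II, chr8:94386365-94386399, plus strand): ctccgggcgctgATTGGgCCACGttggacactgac
Derl3 (ERSE, chr10:75893230-75893272, plus strand): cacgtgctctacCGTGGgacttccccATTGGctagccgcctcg
Creld2 (ERSE, chr15:88819508-88819550, plus strand): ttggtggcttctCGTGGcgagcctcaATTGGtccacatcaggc
Dnajc3 (ERSE, chr14:118937815-118937857, plus strand): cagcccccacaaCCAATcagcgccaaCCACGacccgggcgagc
Syvn1 (ERSE, chr19:6046520-6046562, plus strand): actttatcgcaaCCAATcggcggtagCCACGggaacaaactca
Calr (ERSE, chr8:84847063-84847105, minus strand): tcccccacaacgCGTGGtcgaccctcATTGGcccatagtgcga
Canx (ERSE, chr11:50325788-50325830, minus strand): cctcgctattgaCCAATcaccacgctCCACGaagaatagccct
Pdia6 (ERSE, chr12:17266479-17266521, plus strand): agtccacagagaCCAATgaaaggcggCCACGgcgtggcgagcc

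The Herpud1 match lay 52 to 42 bases before the start, and the other matches shown lay between 162 and 26 bases before it. The UPRE core TGACGTGG, an XBP1 element, was in 0 of the 47 windows and in 0.676% of all windows. The C/EBP-ATF letters TGATGNAAT were in 0 and in 0.965%.

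Libraries held 90714929 and 279125309 reads in genes in IQ3pos_1909A and IQ3pos_1910A, and 115016307 and 418401262 in IQ3neg_1909B and IQ3neg_1910B. The 20 most abundant genes took 18.5% to 25.3% of IQ3pos reads and 57.9% to 63.4% of IQ3neg reads, and deposited CPM are shares of these reads. Levels are therefore given as TMM-scaled CPM, the deposited CPM divided by a TMM composition factor for each library. This moved the median log2 difference of all 13019 tested genes to 0.04 from 0.68 on deposited CPM. Iqgap3, the gene behind the sort, stood at 0.175 and 6.90 TMM-scaled CPM in the IQ3pos libraries and 0.0633 and 0.528 in the IQ3neg libraries, with overlap between the fractions. The epithelial marker Epcam stood at 375 and 382 against 298 and 312, and the collagen genes Col1a1, Col1a2 and Col3a1 of stroma were at most 0.858 in IQ3pos and at most 11.2 in IQ3neg. Chief cell markers summed to 5.11% and 1.97% of reads in the IQ3pos libraries and 41.6% and 40.5% in the IQ3neg libraries. Most of the IQ3neg sums was a single gene, Clps, at 340995 and 277067 deposited CPM. In both IQ3pos libraries 8 of the 9 chief cell markers were lower (all tested genes 23.0%). The other listed cell types are given beside the results they touch, and the part of any of them in those results was not tested.

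Summed over the 53 genes, the level of the ER machinery was 16854 and 16835 TMM-scaled CPM in the IQ3pos libraries and 18495 and 17310 in the IQ3neg libraries. The IQ3pos libraries thus lay just below both IQ3neg libraries in total. The median log2 difference of the members (IQ3pos minus IQ3neg, on log2(TMM-scaled CPM + 1) throughout) was −0.19, beside 0.04 for all tested genes, and 44 of the 53 (83.0%) lay within 1 log2 unit of 0, beside 54.3% of all tested genes. The members were also more abundant than most genes, with a median of 146 TMM-scaled CPM beside 11.2. As shares of reads the order was the other way, 2.12% and 2.28% in IQ3pos against 1.27% and 1.48% in IQ3neg, and on deposited CPM the members' median was 0.56 beside 0.68 for all genes. In bulk libraries, fewer cells of a type and less RNA per cell cannot be told apart.

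**Figure D1:**
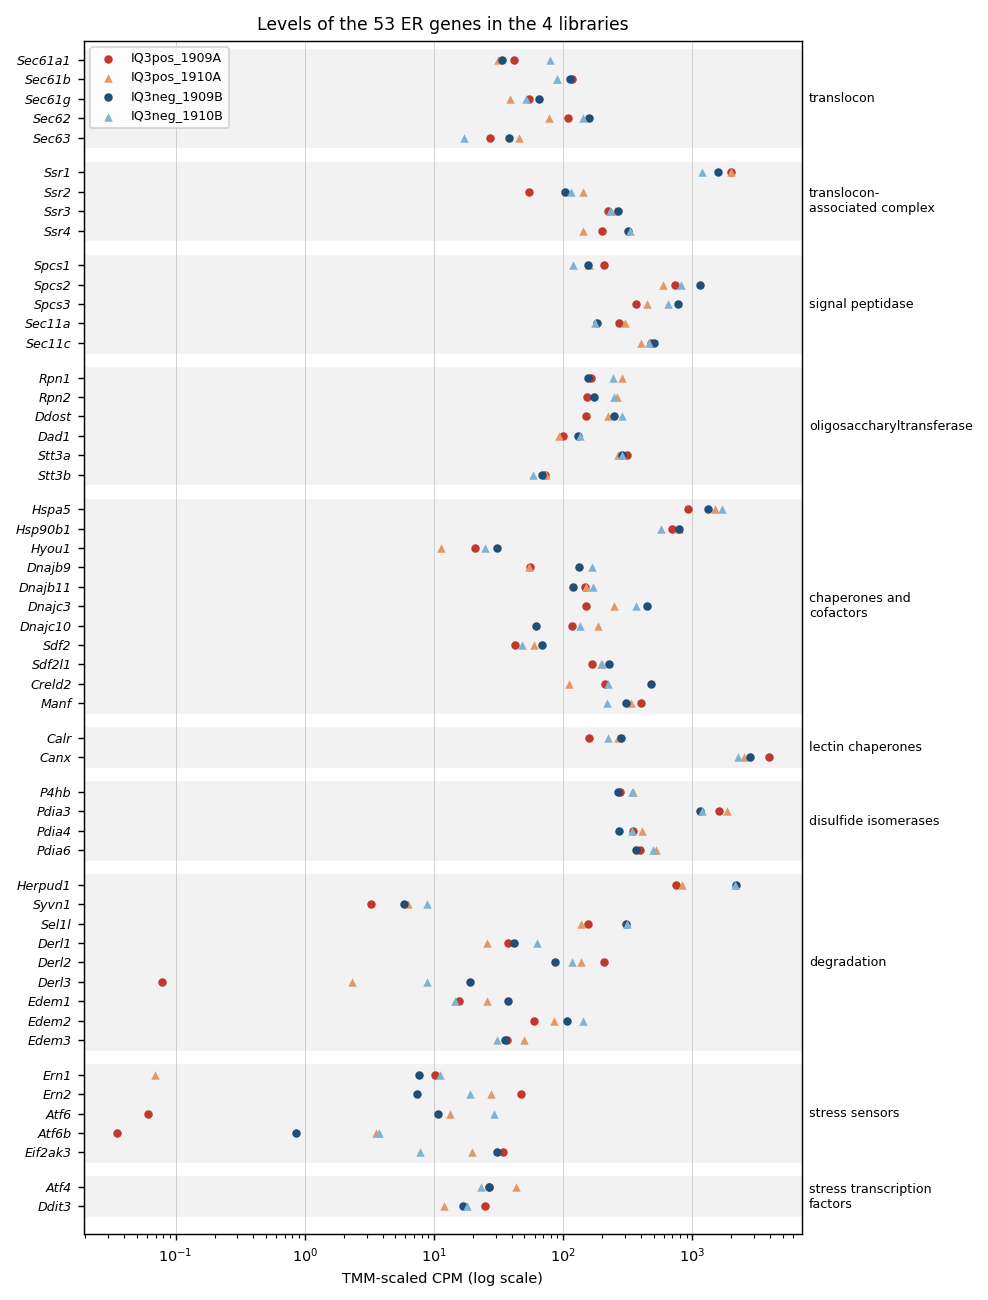
Level of each of the 53 genes in TMM-scaled CPM (log scale), grouped by step, in the IQ3pos libraries (red and orange) and the IQ3neg libraries (dark and light blue), where circles are pools of 3 mice and triangles pools of 4. Most genes have the 4 libraries close together, Herpud1 and Dnajb9 show both IQ3pos libraries below both IQ3neg libraries, and Derl3, Ern1, Atf6 and Atf6b fall below 0.1 in a single IQ3pos library.

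At a threshold of 0.05 on p adjusted over all 13019 tested genes, limma called 0 members in either direction, where 0.0461% of all tested genes were called higher in IQ3pos and 0.184% lower. At an unadjusted p under 0.05, 2 members were higher, Sec11a and Pdia3 (all genes 7.63%), and 7 were lower, Ssr4, Spcs3, Dnajb9, Dnajc3, Herpud1, Sel1l and Derl3 (all genes 8.32%). By edgeR's quasi-likelihood test on the recovered reads 0 were higher and 1, Herpud1, was lower, beside 0.0535% and 0.214% of 16831 genes. DESeq2's Wald test on the same reads called 0 members in either direction, although it called 2.54% of the 16831 genes higher and 10.1% lower. Both IQ3pos libraries stood above both IQ3neg libraries in 11 members (all tested genes 24.7%) and below both in 16 (all tested genes 23.0%), and the fractions overlapped in 26. With 2 libraries a fraction, an exact permutation test over libraries cannot go below p = 0.333 for a single gene.

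The degradation genes are described first, since their step had the lowest median. That rank did not hold on deposited CPM (0.05, with the stress sensors at −0.06), without IQ3neg_1909B (−1.04, sensors −1.22) or without IQ3pos_1909A (−0.62, translocon −0.66). The 9 degradation members summed to 1257 and 1302 TMM-scaled CPM in the IQ3pos libraries and 2828 and 2822 in the IQ3neg libraries, with no overlap, and most of that sum was Herpud1. The median log2 difference was −0.70. Of the 9, 5 were lower in both IQ3pos libraries (all tested genes 23.0%), 2 were higher in both (24.7%) and 2 overlapped. Of the 5, Derl1 turned from −0.70 to 0.05 on deposited CPM.

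Herpud1 encodes a stress-induced ER membrane protein that helps assemble the degradation complex around the ubiquitin ligase HRD1. It lies on chromosome 8 at 94386438 to 94395377 (GRCm38, GENCODE). It stood at 745 and 833 TMM-scaled CPM in IQ3pos_1909A and IQ3pos_1910A, against 2189 and 2126 in IQ3neg_1909B and IQ3neg_1910B. The libraries within each fraction lay close together and the fractions lay far apart. The log2 difference was −1.45 (SE 0.20, limma adjusted p = 0.0703), and −1.50 in edgeR (adjusted p = 0.0297). Over 16 settings, the main one included, the log2 difference ran from −1.68 to −0.69, and it was past the threshold under 3 of them, with adjusted p from 0.00183 to 0.390. It did not pass in any of the 4 fits without 1 library (smallest adjusted p = 0.223). Among the members that averaged at least 25 TMM-scaled CPM it had the lowest difference. Dnajb11, a BiP cofactor whose promoter window holds the same ERSE-II letters, stood at 147 and 150 in the IQ3pos libraries and 118 and 171 in the IQ3neg libraries. Its match lay after the start, unlike that of Herpud1.

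Sel1l encodes the adaptor that hands substrates to HRD1. Its level was 155 and 137 TMM-scaled CPM in IQ3pos against 308 and 312 in IQ3neg, a log2 difference of −1.09 with an SE of 0.25 (adjusted p = 0.179 in limma). Syvn1, which encodes HRD1 itself, was low and overlapped, at 3.27 and 6.31 against 5.88 and 8.89. The ligase, its adaptor and its stress-induced partner thus had log2 differences of −0.56, −1.09 and −1.45, and the differences among them were not tested.

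The 3 derlins, membrane proteins that take part in drawing substrates out of the ER, did not share a direction. Derl2 stood at 205 and 137 TMM-scaled CPM in IQ3pos and 85.8 and 117 in IQ3neg, a log2 difference of 0.73 with an SE of 0.35 (adjusted p = 0.365 in limma). Derl1 stood at 37.1 and 25.8 in IQ3pos and 41.3 and 62.5 in IQ3neg. The ratio of Derl2 to Derl1 reads within a library, which no scaling between libraries can change, was 5.53 and 5.33 in IQ3pos and 2.08 and 1.88 in IQ3neg.

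Derl3, a derlin known for its expression in secretory cells, had the lowest difference of all members. It stood at 0.0788 and 2.32 TMM-scaled CPM in IQ3pos against 18.8 and 8.86 in IQ3neg, a log2 difference of −2.88 with an SE of 1.07 (adjusted p = 0.282 in limma). The first value rests on 9 reads, with a 95% exact Poisson interval of 0.0360 to 0.150 that covers counting error only. Of 7 listed markers of plasma and B cells, 3 were lower in both IQ3pos libraries (all tested genes 23.0%) and 1 was higher (24.7%). The 7 listed genes summed to 49.4 and 0.225 TMM-scaled CPM in IQ3pos and 1238 and 331 in IQ3neg, led by Igkc (29.9 and 0.0742 against 629 and 191), Igha (8.82 and 0.0822 against 309 and 92.5) and Jchain (10.6 and 0.0477 against 293 and 47.3). Mzb1 was at or under 0.240 in every library and Tnfrsf17 was at 0 in 3 of the 4, and the part of these cells in the Derl3 difference was not tested.

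The EDEM genes, whose products trim mannose from misfolded glycoproteins, were split as well. Edem2 stood at 59.1 and 84.4 TMM-scaled CPM in IQ3pos against 106 and 142 in IQ3neg, and Edem3 at 37.0 and 50 against 35.3 and 30.7. Their log2 differences were −0.79 (SE 0.36) and 0.38 (SE 0.43), and neither passed (limma adjusted p = 0.349 and 0.686). Edem1 overlapped, at 15.7 and 25.9 against 37.2 and 14.5. Within a library Edem2 had 1.6 and 1.69 times the reads of Edem3 in IQ3pos and 3.00 and 4.61 times in IQ3neg.

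**Figure D2:**
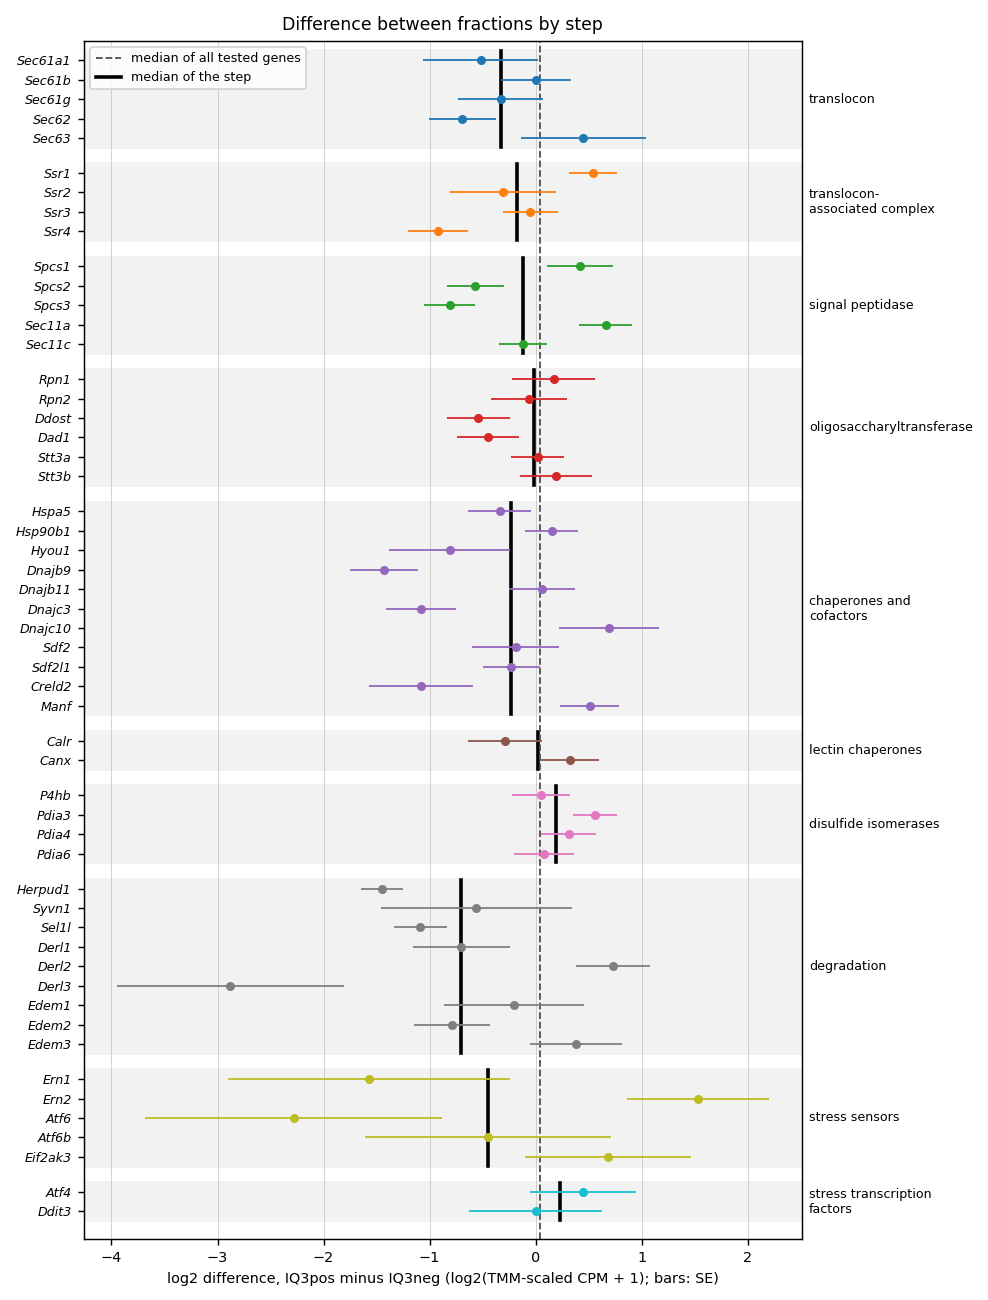
Log2 difference of each gene, IQ3pos minus IQ3neg, on log2(TMM-scaled CPM + 1), with bars of 1 SE from limma (n = 2 libraries each), by step. Black bars mark each step's median, from −0.70 for degradation to 0.23 for the stress transcription factors, and the dashed line the median of all tested genes, 0.04.

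Among the chaperones and cofactors, 5 of 11 members were lower in both IQ3pos libraries (all tested genes 23.0%), 1 was higher (24.7%) and 5 overlapped. Their median was −0.23, and −0.09 without IQ3pos_1909A or −0.42 without IQ3pos_1910A. The abundant chaperones overlapped between fractions, and several cofactors did not. Hspa5, which encodes BiP, the main Hsp70 of the lumen, stood at 925 and 1483 TMM-scaled CPM in IQ3pos and 1307 and 1678 in IQ3neg, with overlap and a log2 difference of −0.34 (SE 0.30). Hsp90b1, the lumenal Hsp90, also overlapped, at 696 and 786 against 786 and 569. Hyou1, a nucleotide exchange factor for BiP, was low at 20.6 and 11.4 against 30.9 and 24.9.

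Dnajb9, a J-domain cofactor of BiP that is induced by IRE1 signalling, was the lowest of this step. It stood at 55.2 and 53.8 TMM-scaled CPM in IQ3pos and 132 and 168 in IQ3neg, a log2 difference of −1.43 with an SE of 0.32 (adjusted p = 0.167 in limma). Dnajc3, a J-domain cofactor also known as an inhibitor of PERK-type kinases, stood at 149 and 246 against 448 and 367, a log2 difference of −1.08 with an SE of 0.33 (adjusted p = 0.233 in limma). Both genes had fractions that did not overlap. The other J-domain members went differently, with Dnajb11 overlapping and Dnajc10, a disulfide reductase, having the highest difference of the step at 0.69 (SE 0.47), from 117 and 185 in IQ3pos against 61.4 and 134 in IQ3neg.

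Creld2 and Manf, both small stress-induced proteins of the lumen, lay on opposite sides. Creld2 stood at 212 and 110 TMM-scaled CPM in IQ3pos and 479 and 221 in IQ3neg, so that IQ3pos_1909A and IQ3neg_1910B all but met, with a log2 difference of −1.08 with an SE of 0.49 (adjusted p = 0.346 in limma). Manf stood at 402 and 337 in IQ3pos and 305 and 217 in IQ3neg, a log2 difference of 0.51 with an SE of 0.28 (adjusted p = 0.435 in limma). Sdf2l1 and Sdf2, which encode partners of BiP and its J-domain cofactors, lay at log2 differences of −0.23 and −0.19, and that of Sdf2l1 was 0.54 on deposited CPM. The ratio of Sdf2l1 to Sdf2 reads overlapped, at 3.94 and 3.30 in IQ3pos and 3.29 and 4.13 in IQ3neg.

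Some members were also set against BiP within the same library. Herpud1 had 0.806 and 0.562 times the reads of Hspa5 in the IQ3pos libraries and 1.68 and 1.27 times in the IQ3neg libraries. Dnajb9 had 0.0597 and 0.0363 times the reads in IQ3pos against 0.101 and 0.0999 times in IQ3neg. Pdia3, a disulfide isomerase, went the other way, with 1.74 and 1.25 times the reads of Hspa5 in IQ3pos against 0.873 and 0.712 times in IQ3neg. The 13 pairs plotted were picked after their values had been seen, so these ratios describe the libraries and were not tested.

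**Figure D3:**
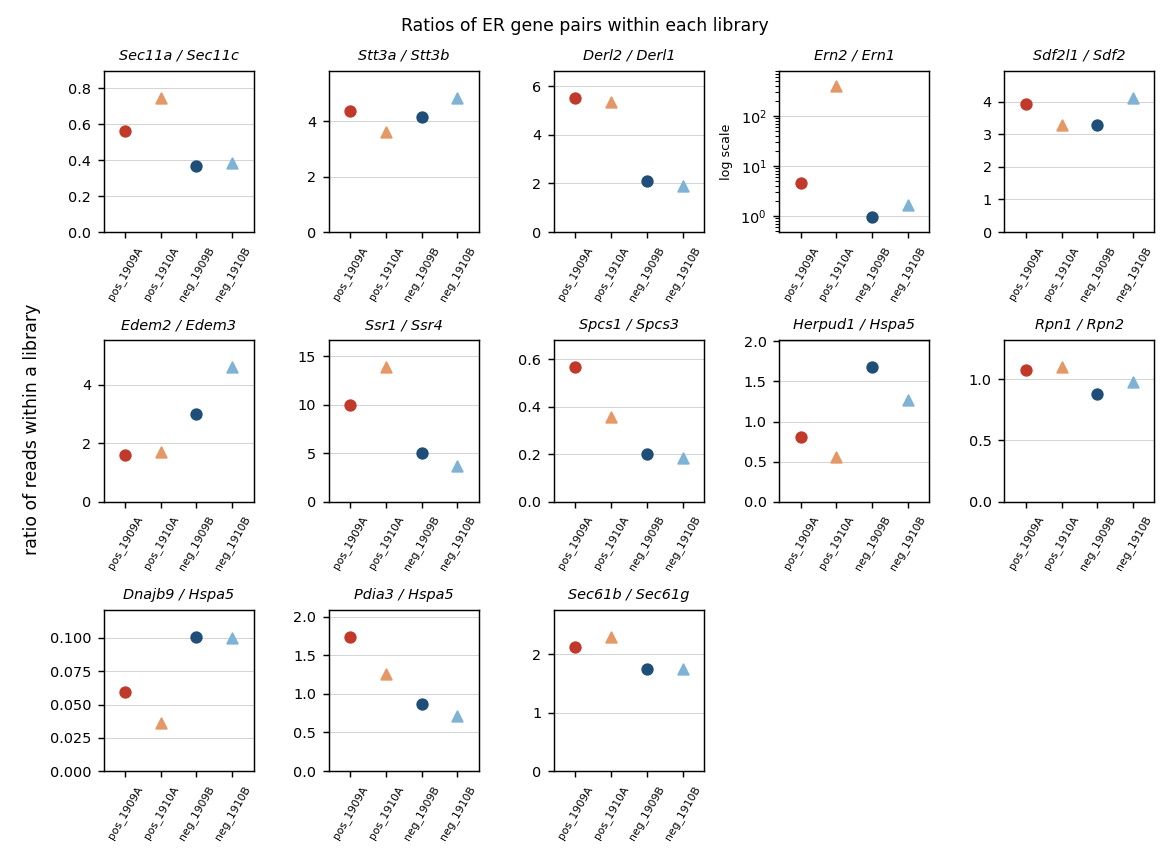
Ratio of the reads of a gene pair within each library (IQ3pos libraries left, IQ3neg libraries right, circles for pools of 3 mice and triangles for pools of 4), linear from 0 apart from Ern2 to Ern1, which has a log axis. Derl2 to Derl1 stands above 5 in both IQ3pos libraries and near 2 in both IQ3neg libraries, while Stt3a to Stt3b and Sdf2l1 to Sdf2 overlap between fractions.

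The disulfide isomerases had a median of 0.19, and none of the 4 lay below 0. Without 1 library the median ran from −0.04 (IQ3neg_1909B left out) to 0.35 (IQ3neg_1910B left out). Pdia3, which works with the lectin chaperones on glycoproteins, stood at 1607 and 1849 TMM-scaled CPM in IQ3pos against 1141 and 1195 in IQ3neg, a log2 difference of 0.56 with an SE of 0.21 (adjusted p = 0.280 in limma). Pdia4 was also higher in both IQ3pos libraries, at 348 and 406 against 272 and 340. P4hb, the classical protein disulfide isomerase, was nearly level at 277 and 349 against 265 and 343, and had the lowest difference of the step, 0.05 (SE 0.27). Pdia6 was close behind at 0.08.

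The lectin chaperones bind glycoproteins while they fold, calnexin in the membrane and calreticulin in the lumen. Canx averaged 684 TMM-scaled CPM per kilobase of exon in IQ3pos, the highest level per length of the members there, and 538 in IQ3neg, where Herpud1 averaged 925. Its libraries stood at 3908 and 2513 TMM-scaled CPM in IQ3pos and 2789 and 2262 in IQ3neg, with overlap and a log2 difference of 0.32 (SE 0.28). Calr overlapped too, at 157 and 266 against 282 and 220, a log2 difference of −0.29 (SE 0.35). Both promoters hold the ERSE letters, as do those of Derl3 and Creld2, whose log2 differences were −2.88 and −1.08. Among the 9 members with an ERSE match, Canx had the highest difference. Creld2, Derl3 and Dnajc3 were the 3 whose fractions did not overlap, all lower in IQ3pos (all tested genes 23.0% lower and 24.7% higher).

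The translocon, the channel itself and its helpers, had a median of −0.33, which was −0.66 without IQ3pos_1909A, −0.09 without IQ3pos_1910A and 0.42 on deposited CPM. The channel subunits Sec61a1, Sec61b and Sec61g all overlapped between fractions. Sec61b, the most abundant of the step per kilobase, stood at 116 and 88.7 TMM-scaled CPM in IQ3pos and 113 and 89.9 in IQ3neg, level at a log2 difference of 0.00 (SE 0.33). Sec62, a helper for short and post-translationally imported proteins, was the lowest at 109 and 78.2 against 159 and 141, −0.69 (SE 0.32, limma adjusted p = 0.355), and 0.07 on deposited CPM. Its partner Sec63 was the highest, 0.45 (SE 0.59), at 27.0 and 45.6 against 37.7 and 17.0, with overlap.

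The translocon-associated complex, 4 subunits that assist entry of some proteins, had its ends far apart. Its median was −0.18, but 0.12 without IQ3pos_1909A and −0.42 without IQ3pos_1910A. Ssr1, its alpha subunit, stood at 2002 and 1980 TMM-scaled CPM in IQ3pos against 1579 and 1192 in IQ3neg, a log2 difference of 0.54 with an SE of 0.23 (adjusted p = 0.326 in limma). Ssr4, its delta subunit, stood at 201 and 143 against 315 and 327, a log2 difference of −0.92 with an SE of 0.28 (adjusted p = 0.236 in limma). Subunits of 1 complex thus differed in sign, and the ratio of Ssr1 to Ssr4 reads was 9.97 and 13.9 in IQ3pos and 5.01 and 3.65 in IQ3neg. Ssr2 and Ssr3 overlapped, with log2 differences of −0.31 and −0.05.

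Signal peptidase, which cuts off the signal peptide, also had subunits on either side of 0. Its median of −0.12 was −0.34 without IQ3pos_1909A and 0.00 without IQ3pos_1910A. Its catalytic subunit is either Sec11a or Sec11c. Sec11a stood at 270 and 302 TMM-scaled CPM in IQ3pos against 183 and 176 in IQ3neg, a log2 difference of 0.66 with an SE of 0.25 (adjusted p = 0.290 in limma), and Sec11c at 481 and 403 against 501 and 459, with overlap. The ratio of Sec11a to Sec11c reads was 0.561 and 0.748 in IQ3pos and 0.366 and 0.385 in IQ3neg. Of the non-catalytic subunits, Spcs3 was the lowest of the step at 363 and 444 against 769 and 649, −0.81 (SE 0.24, limma adjusted p = 0.231). Spcs2, the most abundant per kilobase in the IQ3pos libraries and in the IQ3neg libraries alike, stood at 733 and 587 against 1149 and 822, a log2 difference of −0.57, and of 0.20 on deposited CPM. Spcs1 was higher in both IQ3pos libraries, at 206 and 159 against 155 and 118, a log2 difference of 0.42, and opposite-strand exons of Glt8d1 cover 16.3% of its exons.

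Oligosaccharyltransferase, which attaches the N-linked glycan, had log2 differences between −0.54 and 0.19 and a median of −0.02, which was −0.32 without IQ3pos_1910A and 0.01 without IQ3neg_1910B. Stt3a and Stt3b encode its alternative catalytic subunits. Stt3a stood at 313 and 267 TMM-scaled CPM in IQ3pos and 286 and 285 in IQ3neg, and Stt3b at 71.7 and 73.6 against 69.0 and 58.8. Stt3b had the highest difference of the step, 0.19 (SE 0.34), which became −0.03 without the 20 most abundant genes. The ratio between them overlapped, at 4.36 and 3.63 in IQ3pos and 4.15 and 4.86 in IQ3neg, unlike that of the signal peptidase pair. Ddost was the most abundant subunit per kilobase and the lowest in difference, at 150 and 223 against 248 and 287, −0.54 (SE 0.30), and 0.22 on deposited CPM. Dad1 had a log2 difference of −0.45, and of 0.31 on deposited CPM, and Rpn1 and Rpn2 overlapped.

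The sensors of the unfolded protein response were among the members of lowest level, and their log2 differences had SEs of 0.67 to 1.40. Their median of −0.45 was −1.22 without IQ3neg_1909B and 0.21 without IQ3pos_1909A. Ern2, an IRE1 form known from mucus-producing epithelia, had the highest difference of all 53 genes. It stood at 46.9 and 27.7 TMM-scaled CPM in IQ3pos against 7.37 and 18.8 in IQ3neg, 1.53 (SE 0.67, limma adjusted p = 0.332). Ern1, the widely expressed IRE1 form, stood at 10.2 and 0.0689 against 7.64 and 11.1. IQ3pos_1910A alone stood apart there, on 26 reads (95% exact Poisson interval 0.0450 to 0.101), and the ratio of Ern2 to Ern1 reads was 4.61 and 403 in IQ3pos and 0.964 and 1.68 in IQ3neg.

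Markers of mucus-secreting pit cells moved with Ern2. The 4 listed pit genes summed to 7573 and 7217 TMM-scaled CPM in IQ3pos and 1477 and 1595 in IQ3neg. All 4 were higher in both IQ3pos libraries (all tested genes 24.7%), led by Gkn1 (4242 and 3659 against 872 and 815) and Gkn2 (2542 and 2635 against 466 and 580). Of the 2 mucous neck genes, Tff2 stood at 3363 and 4063 against 604 and 697 and Muc6 at 302 and 302 against 383 and 650. Their part in the Ern2 difference was not tested.

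Atf6 encodes a sensor that is cut in the Golgi to release a transcription factor. It had the lowest difference of the step, −2.28 (SE 1.40), from 0.0613 and 13.2 TMM-scaled CPM in IQ3pos and 10.7 and 29.3 in IQ3neg, and the low value rests on 7 reads. Its relative Atf6b stood at 0.0350 and 3.58 against 0.861 and 3.73, the first on 4 reads. Eif2ak3, which encodes PERK, the sensor that slows translation, overlapped at 34.1 and 19.6 against 30.8 and 7.84. For these 3 sensors and Ern1 the fractions overlapped.

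Of the transcription factors, Atf4, which drives amino acid and redox genes below PERK, stood at 26.6 and 43.3 TMM-scaled CPM in IQ3pos and 26.5 and 23.0 in IQ3neg. IQ3pos_1909A and IQ3neg_1909B were thus level, and the log2 difference was 0.45 (SE 0.50, limma adjusted p = 0.675). Ddit3, which encodes the pro-apoptotic factor CHOP, overlapped at 24.9 and 12.0 against 16.6 and 18, a log2 difference of 0.00 (SE 0.63). Opposite-strand exons overlap 4.73% of the Ddit3 exons, and same-strand exons of a second gene of the same name overlap 6.13%. Atf4 is controlled mainly by its translation, which RNA levels do not show.

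Within the 2 pairs of pools that share a number, 39 of the 53 members had the same sign. Across members, Pearson's r between the differences of the pools of 3 mice and those of the pools of 4 was 0.40, and 0.38 across all tested genes, where the points share libraries and genes are not independent replicates. Herpud1 differed by −1.55 between the pools of 3 mice and −1.35 between those of 4, Dnajb9 by −1.25 and −1.62, and Sel1l by −0.99 and −1.18. Members with opposite signs included Sec61a1 (0.29 and −1.33), Sec63 (−0.47 and 1.37), Edem1 (−1.19 and 0.80) and Ern1 (0.37 and −3.51). The 9 members that averaged under 25 TMM-scaled CPM (Hyou1, Syvn1, Derl3, Edem1, Ern1, Atf6, Atf6b, Eif2ak3 and Ddit3) held 0 that were higher and 2 that were lower in both IQ3pos libraries (all tested genes 24.7% and 23.0%).

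**Figure D4:**
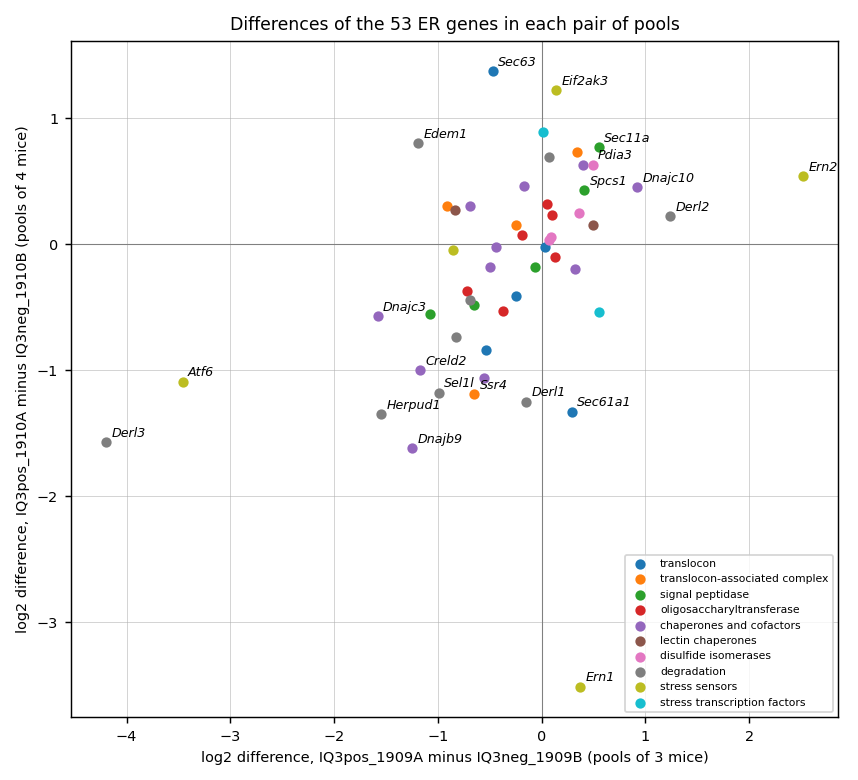
Log2 difference, IQ3pos minus IQ3neg, of each of the 53 genes between the pools of 3 mice (x axis) and between the pools of 4 mice (y axis), coloured by step. Herpud1, Dnajb9, Sel1l and Creld2 lie near or below −1 on both axes. Derl3 and Atf6 lie farther out, at −4.20 and −3.46 on the x axis and −1.57 and −1.09 on the y axis, and Ern1 and Ern2 lie far out on a single axis.

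Further genes of the same pathway were taken from 7 lists of 156 genes, of which 155 were in the table and 146 were tested. Limma called 0 higher (all genes 0.0461%) and 1 lower (all genes 0.184%), and edgeR called 0 higher (0.0535%) and 2 lower (0.214%). DESeq2 called 1 higher (2.54%) and 9 lower (10.1%), and at an unadjusted p under 0.05 limma gave 5 higher (7.63%) and 17 lower (8.32%). Both IQ3pos libraries were above both IQ3neg libraries in 19 (24.7%) and below in 43 (23.0%), and the median log2 difference was −0.10 beside 0.04 for all tested genes. The genes DESeq2 called were Nfe2l2, higher, and Tmed6, Pdia2, Dolk, Bhlha15, Nupr1, Uggt2, Chac1, Slc7a5 and Ddit4, lower. The last 4, named after their values were seen, stood at or under 0.0963 TMM-scaled CPM in both IQ3pos libraries and at 1.42 to 9.30 in the IQ3neg libraries. These 4, Bhlha15 and Dolk reached a mean of 1 CPM only through the IQ3neg libraries, as did Creb3l2, another of the 43. All of these could count only as lower, and they are therefore no support for a direction.

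The gene that fell was Tmed6, a cargo receptor of ER to Golgi vesicles known from secretory epithelia. It stood at 163 and 90.1 TMM-scaled CPM in IQ3pos against 1140 and 1080 in IQ3neg, a log2 difference of −3.18 with an SE of 0.34 (adjusted p = 0.0478 in limma). It was past the threshold under 8 of 16 settings and under none of the 4 without 1 library (smallest adjusted p = 0.225). Pdia2, a disulfide isomerase best known from the pancreas, stood at 420 and 178 against 2849 and 3254, −3.47 (SE 0.42, limma adjusted p = 0.0551, edgeR adjusted p = 0.0404). The 4 isomerases among the members had log2 differences of 0.05 to 0.56. Of 9 listed markers of pancreatic acinar cells, 4 were lower in both IQ3pos libraries (all tested genes 23.0%) and 1 was higher (24.7%). The 9 summed to 12.4 and 0.957 in IQ3pos and 876 and 794 in IQ3neg, nearly all from Cel (12.2 and 0.273 against 845 and 776), with Cela2a next (0.0175 and 0.00530 against 21.7 and 12.5). Cpa1 and Cpb1, which define that cell type, were at most 0.0380 in every library.

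In the step of targeting to the ER (15 tested, median −0.18), Srpr, the signal recognition particle receptor, was lowest at −1.74 and Get4 highest at 1.52. Among genes of dolichol-linked glycan synthesis (25, median 0.01), Dolk, which makes dolichol phosphate, was lowest at −4.03 and Alg8, a glucosyltransferase, highest at 2.38. In other folding and oxidation enzymes (31, median −0.11) Erp29 was highest at 0.84. In other degradation genes (21, median −0.05) the ends were Ubac2 at −1.79 (SE 1.19) and Ube2g2 at 1.49 (SE 1.36). Both overlapped between fractions, with Ubac2 at 22.4 and 1.29 TMM-scaled CPM in IQ3pos against 30.6 and 19.2 in IQ3neg. Ube2g2 stood at 11.7 and 36.9 against 1.11 and 27.8. Lman2, a cargo lectin, was the highest of ER to Golgi transport (26, median −0.05) at 0.84. None of these 8 genes passed in the main limma fit. Dolk passed in DESeq2 (adjusted p = 0.00204), where its IQ3pos values rest on 8 and 310 reads. It reached the filter on low values only through the IQ3neg libraries, so it could count only as lower.

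The lists below the sensors had the lowest medians. Among other stress transcription factors and processing proteases (11 tested, median −0.60) 6 were lower in both IQ3pos libraries (all tested genes 23.0%) and 1 was higher (24.7%). The 6 include Bhlha15 and Creb3l2, which could count only as lower. Creb3l2 stood at 0.0963 and 0.914 TMM-scaled CPM in IQ3pos and 5.64 and 5.73 in IQ3neg. Bhlha15, the MIST1 factor of secretory cells, was the lowest at −2.65, with 0.0700 and 0.0159 TMM-scaled CPM in IQ3pos and 5.06 and 6.02 in IQ3neg. Nfe2l2, the NRF2 factor of the redox response, was the highest at 1.88 (SE 0.30, limma adjusted p = 0.0863), with 352 and 275 against 75.8 and 92.5. Xbp1, named although it was neither end of its list, encodes the factor that IRE1 activates by splicing. It stood at 399 and 361 in IQ3pos against 653 and 844 in IQ3neg, −0.97 (SE 0.24, limma adjusted p = 0.197), and splice forms were not resolved.

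In the PERK branch with ATF4 targets (17 tested, median −0.46), 9 were lower in both IQ3pos libraries (all tested genes 23.0%) and 2 were higher (24.7%). Chac1, Slc7a5 and Ddit4, which could count only as lower, are among the 9. Nupr1, a stress-induced chromatin protein, was the lowest at −5.19 (SE 0.72, limma adjusted p = 0.0698), with 113 and 24.8 TMM-scaled CPM in IQ3pos against 2756 and 1426 in IQ3neg. Psat1, a serine synthesis enzyme, was the highest at 2.27, with 35.0 and 36.4 against 10 and 4.25. Neither passed in the main limma fit, though Nupr1 was past the threshold under 4 of 16 settings, DESeq2 among them (adjusted p = 0.000425).

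The cell type markers that moved with the lower genes were several. Besides the chief cell genes, of which Clps (25183 and 5285 TMM-scaled CPM in IQ3pos against 496316 and 324047 in IQ3neg) and Pgc (9374 and 7261 against 54613 and 79793) were the most abundant, the 5 enteroendocrine genes summed to 286 and 129 against 23539 and 11904, led by Sst (96.5 and 47.8 against 12829 and 5450) and Ghrl (110 and 28.3 against 6054 and 2683). The 3 tuft cell genes summed to 372 and 83.5 against 471 and 1067, led by Rgs13 (301 and 76.5 against 347 and 727) and Dclk1 (63.0 and 6.94 against 75.2 and 253). The 2 parietal cell genes went the other way, with Atp4b at 2450 and 1618 against 449 and 351 and Atp4a at 677 and 546 against 169 and 228. Leukocyte genes summed to 38.2 and 3.50 against 102 and 23.5, led by Ptprc (18.1 and 0.0610 against 56.4 and 17.0) and Tyrobp (9.99 and 3.40 against 15.3 and 4.48), and stromal genes to 3.75 and 0.557 against 27.3 and 1.99. In both IQ3pos libraries, 0 of the 4 leukocyte genes and 1 of the 5 stromal genes were lower (all tested genes 23.0%). The epithelial keratins Krt18 and Krt8, at 1238 and 1230 against 889 and 1661 and at 688 and 1489 against 488 and 1065, overlapped. The part of cell type in the differences of Herpud1, Sel1l, Dnajb9 and Dnajc3 was not tested.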

How the data were processed

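Bulk SMART-Seq2 RNA was measured in 4 libraries of sorted mouse corpus cells, 2 per fraction, grouped by their titles. The deposited table gives CPM per gene symbol. Per the submitters' processing notes, the tools were STAR 2.7.1a, Subread 2.0.0, featureCounts and edgeR with the build GRCm38/mm10, their roles and order left unstated. Not given in the sources used here are the gene annotation, strandedness, and how multi-mapped and duplicate reads were treated. The columns of deposited CPM each sum to 1000000, so they hold no composition factor. Whole reads were recovered from the CPM, since 100% of values lay within 0.05 of a whole read. Between 64.7% and 70.4% of the gene counts were even. Reads carry no molecular identifiers. The intervals cover counting error only and treat each read as independent, so they may be too narrow.

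TMM factors (edgeR 4.0.16, from the tested genes) were 1.26 and 1.35 for IQ3pos_1909A and IQ3pos_1910A and 0.687 and 0.855 for IQ3neg_1909B and IQ3neg_1910B. Differences were tested with limma-trend (version 3.58.1, in R 4.3.3) on log2(TMM-scaled CPM + 1) for the 13019 genes with a mean CPM of at least 1, two-sided, with Benjamini-Hochberg adjustment over all of them at 0.05, 2 residual and 3.89 prior degrees of freedom, and no block. The pseudocount understates the differences of low genes. The labels do not tie libraries of the same number to the same mice, and p-values measure the spread between these pools, part of which may be technical. The edgeR quasi-likelihood test and DESeq2 1.42.0 were run on the recovered reads (16831 genes). The scripts were tested on simulated data.

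The members and all lists were chosen with earlier results of these data known, so no list test was made. Values per library were given for members past a threshold and, in each step, for those of highest and lowest difference and highest level. For other lists the genes past the threshold in limma or edgeR and both ends were named, and for markers the 2 most abundant. Further members named were chosen after their values were seen. Of the rows, 53647 (96.9%) match a GENCODE vM21 symbol. Promoter sequences are from RefSeq (GRCm38.p6). Ddit3 also has a second row at 0, which was not used.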

Additional observations from a re-analysis of the deposited data

How the results depend on the processing

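The count of members called lower, 0 in the main test, became 1 (Herpud1) in edgeR, with a mean CPM of at least 5 and in the fit with a replicate block, and stayed 0 in the other 12 alternatives. The count called higher was 0 under all 15 alternatives. The members' median log2 difference, −0.19, was 0.56 on deposited CPM, −0.41 without the 20 most abundant genes and −0.12 with a pseudocount of 5, and −0.23 to −0.09 with 1 library left out. Those scalings also moved the median of all tested genes, to 0.68 and −0.16, and relative to that median the members lay at −0.30 to −0.11 over the 15 alternatives. On deposited CPM the differences of Sec62, Spcs2, Ddost, Dad1, Sdf2l1 and Derl1 turned to 0.07, 0.20, 0.22, 0.31, 0.54 and 0.05, and without the 20 most abundant genes that of Stt3b turned to −0.03. The fractions of these members did not overlap. Members with overlapping fractions changed sign too on deposited CPM, such as Sec61a1 (−0.52 to 0.23) and Sec61g (−0.33 to 0.42). Ssr2 (−0.31 to 0.45) and Ssr3 (−0.05 to 0.71) did so as well, and such changes are counted among the 42 below. Of the other values for single members, 742 kept their direction and side of the threshold or moved by less than 1 SE, 42 moved by more and 3 passed the threshold. Of the genes named from other lists, Tmed6 lost its call in 8 alternatives, while Pdia2 passed in 7, Nupr1 in 4, Nfe2l2 in 3, Bhlha15 and Dolk in DESeq2 (adjusted p = 2.06e-08 and 0.00204), and Srpr, Alg8 and Xbp1 under the replicate block (adjusted p = 0.036, 0.0435 and 0.0453). Of the step medians 119 moved by less than the spread between libraries and 31 by more. The library numbers give only 2 pairs, whose deviations correlated at 0.14, so the paired fit is given as an alternative: under the replicate block Herpud1 had an adjusted p of 0.00183. TMM factors from all rows of the table were an alternative chosen after seeing the data. In a fit without 1 library, the lone library of its fraction is assumed to vary like the other fraction. The low values of Derl3, Ern1, Atf6 and Atf6b rest on under 100 reads in a library, so counting error is large for them. The 26 reads of Ern1 lay in IQ3pos_1910A, the deeper of the IQ3pos libraries, and the cause of these low values was not tested.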
